A study of Homo sapiens with 12 samples.

Results

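The genes of the major histocompatibility complex (MHC) class I molecule and of its peptide loading were followed across drug treatments of MyLa cells, an established cell line of cutaneous T cell lymphoma. The set holds 9 genes chosen by name: the heavy chain genes HLA-B, HLA-C, HLA-E and HLA-F, the light chain gene B2M, the peptide transporter genes TAP1 and TAP2, the tapasin gene TAPBP and the transactivator gene NLRC5. All 9 were found among 59050 gene names, and all 9 were among the 16208 genes that passed the filter on low counts. Bulk RNA sequencing covered 4 groups of 3 libraries, each of cells kept for 24 h: romidepsin (3.2 nM) together with afatinib dimaleate (5.7 uM), called the combination here, romidepsin alone (3.2 nM), afatinib dimaleate alone (5.7 uM), and DMSO, the solvent. The medium of all groups held 20 ng/mL of interleukin-2, and the amount of DMSO was matched to that of the combination. Romidepsin is an inhibitor of histone deacetylases, and afatinib blocks the ERBB family of receptor kinases. The series was planned around the synergy of both drugs, so the values address what each drug changed, what the combination changed, and where it departed from the sum of the drugs.

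A class I molecule is a heavy chain paired with beta-2-microglobulin, the B2M product, and it carries a short peptide to the cell surface, where CD8 T cells and natural killer cells read it. The proteasome cuts proteins into peptides, the TAP1-TAP2 transporter moves them into the endoplasmic reticulum, trimming enzymes shorten them, and tapasin holds the empty heavy chain beside the transporter until a peptide fits. Class I genes are induced by interferon gamma, and NLRC5 acts on their promoters together with the RFX and NF-Y complexes.

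Promoters are shown because HLA-B and HLA-C, close relatives, had fold changes of different size, and B2M rose where both fell in the combination and with romidepsin. The windows run from 250 bases before to 50 bases after the start site and come from RefSeq (GRCh38.p14), whose table held 7 of the 9 genes. HLA-B is chr6:31357130-31357429 (minus strand), HLA-C is chr6:31272043-31272342 (minus strand), HLA-F is chr6:29723184-29723483 (plus strand) and B2M is chr15:44711267-44711566 (plus strand), each 5′ to 3′ on the strand of the gene. Capitals mark matches on either strand to GGGATTCCC (the core of the NF-kB site), GAANNGAAA or ATTGG (the Y box, bound by NF-Y). GAANNGAAA is a spelling of the interferon response element, and other spellings were not searched.
HLA-B: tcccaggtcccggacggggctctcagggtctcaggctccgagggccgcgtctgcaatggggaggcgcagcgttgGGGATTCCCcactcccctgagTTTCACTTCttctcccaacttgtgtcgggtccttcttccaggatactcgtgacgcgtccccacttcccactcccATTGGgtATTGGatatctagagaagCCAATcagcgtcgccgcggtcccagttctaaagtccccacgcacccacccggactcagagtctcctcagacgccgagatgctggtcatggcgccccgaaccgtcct
HLA-C: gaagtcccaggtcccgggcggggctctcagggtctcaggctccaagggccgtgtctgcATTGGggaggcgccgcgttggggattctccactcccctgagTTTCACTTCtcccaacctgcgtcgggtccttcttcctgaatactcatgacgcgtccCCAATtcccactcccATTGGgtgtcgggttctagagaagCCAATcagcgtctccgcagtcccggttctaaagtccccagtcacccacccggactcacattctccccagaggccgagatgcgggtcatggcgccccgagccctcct
HLA-F: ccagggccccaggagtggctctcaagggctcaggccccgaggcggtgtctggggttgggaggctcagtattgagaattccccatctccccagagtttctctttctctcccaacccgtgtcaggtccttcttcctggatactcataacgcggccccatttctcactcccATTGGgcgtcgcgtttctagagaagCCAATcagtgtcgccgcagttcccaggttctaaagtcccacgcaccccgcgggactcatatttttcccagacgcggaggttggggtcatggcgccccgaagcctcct
B2M: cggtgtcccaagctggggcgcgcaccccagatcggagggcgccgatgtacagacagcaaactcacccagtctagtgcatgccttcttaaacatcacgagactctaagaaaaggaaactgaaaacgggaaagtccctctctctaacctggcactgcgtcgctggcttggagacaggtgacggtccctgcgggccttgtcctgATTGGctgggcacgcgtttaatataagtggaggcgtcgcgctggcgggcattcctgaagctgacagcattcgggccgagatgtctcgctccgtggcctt

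HLA-B held the NF-kB core, 176 bases before the start, 1 interferon element and 3 Y boxes. HLA-C held 1 interferon element and 4 Y boxes. The letters GGGATTCCC were not in its window, which holds ggggattctcc, so an NF-kB site in another spelling is not excluded. The windows of HLA-B and HLA-C were 90.9% identical over 296 aligned positions. HLA-F held 2 Y boxes, and its window was 82.4% identical to that of HLA-B and 82.3% to that of HLA-C. B2M held 1 Y box. The B2M window also holds gaaactgaaa and that of HLA-F tttctctttc, which resemble the interferon element but do not match the spelling searched. An interferon element in another spelling is therefore not excluded in B2M or HLA-F. Of all 35116 promoters in the table, 0.384% held GGGATTCCC, 7.66% GAANNGAAA and 34.6% the Y box, so a Y box alone is common. No motif overlapped another. The letters TGACGT, a CRE-like core found in 7.98% of promoters, were in none of the 8 windows of these genes. Among the other windows, TAP2 held 1 interferon element, 1 of 2 TAP1 windows held 1 Y box, and TAPBP held no match to the spellings searched. The TAPBP window holds gaaagtgaaa and the TAP1 window with the Y box tttcgctttc, so another spelling of the interferon element is not excluded there either. A match describes letters and not a bound site.

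Libraries held 8972228 to 12696653 counts, and levels are given as CPM, counts scaled to library size with TMM factors, on which 3 counts are worth 0.229 to 0.344 CPM. Mitochondrial transcripts took 10.7% to 14.8% of the counts. KRT5, a keratin of the skin and not of T cells, had 43 counts in combination replicate 1, 126 in afatinib replicate 3, 59 in DMSO replicate 1 and 94 in DMSO replicate 2, and the remaining 8 libraries had 1 count or none. Whether the libraries of a group are separate cultures is not in the labels, and p-values therefore cover only the spread among these libraries, which may be technical. Of 11 T cell markers 7 passed the filter on low counts, while CD3E had at most 4 counts in a library, CD5 at most 5 and CD7 at most 2. Their summed level was 313 to 324 CPM in the combination, 539 to 562 in romidepsin, 1070 to 1110 in afatinib and 1550 to 1640 in DMSO. Most of this sum was IL2RA, the interleukin-2 receptor chain induced on activated T cells, with a mean of 682 CPM, and the other 6 averaged 12.3 to 74.3 CPM. Of 12 keratinocyte markers 7 passed, and their sum was 220 to 232 CPM in the combination, 261 to 263 in romidepsin, 320 to 348 in afatinib and 313 to 359 in DMSO. Most of it was SFN, KRT10, TP63 and PERP, with means of 115, 59.2, 57.4 and 54.1 CPM. KRT5 averaged 2.37 CPM and KRT14 0.708 CPM, so this sum is no measure of the KRT5 reads. Of 9 myeloid markers 3 passed, and their sum was 24.8 to 29 CPM in the combination, 39.1 to 51 in romidepsin, 72.8 to 78 in afatinib and 26.9 to 35 in DMSO. Of 4 fibroblast markers 2 passed, and their sum, nearly all COL1A1, was 8.79 to 9.38 CPM in the combination, 12.6 to 18.5 in romidepsin, 54 to 55.2 in afatinib and 109 to 136 in DMSO. B cell markers summed to at most 7.3 CPM and erythroid markers to at most 0.458 CPM. The markers KRT1, MARCO, S100A8, MS4A1, HBB, DCN and LUM were at 0 counts in every library. The part of these markers in the changes below was not tested, and bulk RNA cannot tell fewer cells of a kind from less RNA per cell.

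The combination lowered TAPBP, HLA-F, TAP1, HLA-C and HLA-B against DMSO and raised NLRC5, HLA-E and B2M, and TAP2 was not called. That is 8 of 9 genes past the threshold, 3 higher and 5 lower (edgeR quasi-likelihood test, Benjamini-Hochberg adjusted p below 0.05), where 74.3% of all tested genes passed, 37.2% higher and 37.1% lower. Libraries of the combination did not overlap with those of DMSO for 7 of 9 genes, against 74.8% of all genes. Shares of this size in the background mean that the number called is no result about the set. The median log2 fold change of the 9 genes was -0.48, against -0.01 over all tested genes. Romidepsin called 7 of 9, 2 higher and 5 lower, where 62.6% of all genes passed, 31.1% higher and 31.5% lower, and 7 of 9 did not overlap, against 64.7% of all genes. Afatinib called 5 of 9, all lower, where 45.4% of all genes passed, 22% higher and 23.3% lower, and 4 of 9 did not overlap, against 52.7% of all genes. Of all afatinib calls 48.6% were higher, and 62.2% with scaling by library size alone. These 3 comparisons share the DMSO libraries, so their values are set side by side and not as separate evidence.

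**Figure D1:**
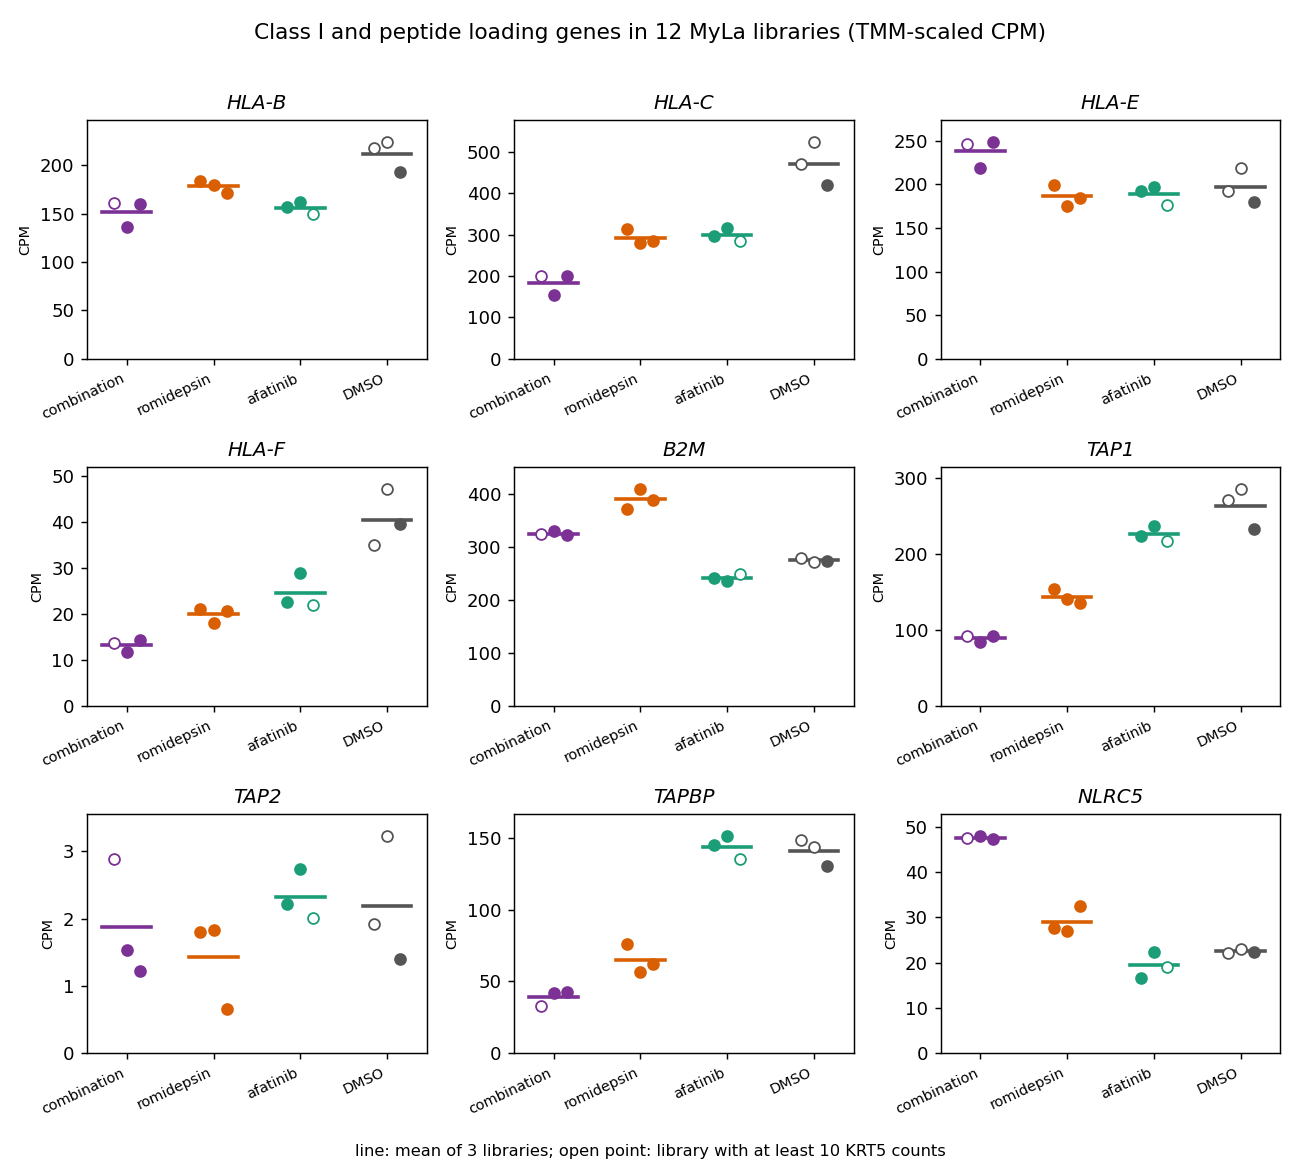
Level of each of the 9 genes in CPM (vertical axes, linear, from 0) in the libraries of the combination, romidepsin, afatinib and DMSO groups, with a line at the mean of 3 libraries and open points for libraries with at least 10 KRT5 counts. HLA-C, HLA-F and TAP1 sit lowest in the combination and highest in DMSO, TAPBP is low in the combination and with romidepsin, and NLRC5 is between 47.4 and 47.97 CPM in the combination libraries, above the other groups.

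Among the heavy chains, HLA-C is a classical chain that presents peptides to CD8 T cells and is read by killer cell receptors. HLA-C (chromosome 6, 31268749 to 31272130 on GRCh38) had 199, 154 and 200.1 CPM in the combination libraries, against 469.7, 524 and 420 CPM in DMSO. It had 312, 280.1 and 283.5 CPM with romidepsin and 297, 314.8 and 283.8 CPM with afatinib. No treated library reached a DMSO library, the combination libraries lay below those of either drug, and the single drugs overlapped. Against DMSO, HLA-C changed by a log2 fold change of -1.36 in the combination (SE 0.09, edgeR adjusted p = 2.3e-12). It was -0.69 on the log2 scale with romidepsin (SE 0.09, edgeR adjusted p = 2.57e-07) and -0.66 with afatinib (SE 0.08, edgeR adjusted p = 1.18e-06).

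HLA-B, the other classical chain of the set, moved less. Its table entry spans chromosome 6, 31269491 to 31357188, and shares 35 exon bases with HLA-C. It shares 542 more with AL671883.2, a gene without counts, so 18.9% of its exon bases are shared. HLA-B had 161, 136 and 159.7 CPM in the combination, against 218, 224 and 193 CPM in DMSO. It had 184, 180 and 171 CPM with romidepsin and 157, 162 and 149.9 CPM with afatinib. All treated libraries lay below all DMSO libraries, and those of the combination and of afatinib overlapped. The log2 fold change of HLA-B was -0.48 in the combination (SE 0.06, edgeR adjusted p = 5.55e-09), -0.25 with romidepsin (adjusted p = 0.000836) and -0.44 with afatinib (adjusted p = 1.6e-07). The romidepsin call ended without the 4 libraries with KRT5 reads (log2 fold change -0.07, edgeR adjusted p = 0.576), and so did that of afatinib (-0.24, 0.064).

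HLA-F, a nonclassical chain with restricted peptide binding, lay well below the others. Of its exon bases 28% are shared with other genes, and reads there were left out, so its level may be an underestimate. HLA-F (chromosome 6, 29722775 to 29738528) had 13.7, 11.8 and 14.3 CPM in the combination, against 34.85, 47.15 and 39.4 CPM in DMSO. It had 21.1, 18.1 and 20.6 CPM with romidepsin and 22.7, 28.8 and 21.9 CPM with afatinib. All treated libraries were below all DMSO libraries. The log2 fold change of HLA-F was -1.61 in the combination (SE 0.12, edgeR adjusted p = 4.28e-17), -1.01 with romidepsin (adjusted p = 7.44e-11) and -0.73 with afatinib (adjusted p = 3.6e-07).

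HLA-E, a nonclassical chain that carries leader peptides of other class I chains and is read by the receptor NKG2A on natural killer cells, went the other way. HLA-E (chromosome 6, 30489509 to 30494194) had 246, 218 and 249 CPM in the combination, against 193, 219 and 179.6 CPM in DMSO. It had 199.6, 175 and 184 CPM with romidepsin and 192, 197 and 176.5 CPM with afatinib. The lowest combination library lay just under the highest DMSO library, and above every library of the single drugs. HLA-E rose in the combination (log2 fold change 0.27, SE 0.07, edgeR adjusted p = 0.000266). It was not called with romidepsin (-0.08, 95% interval -0.21 to 0.05) or afatinib (-0.06, -0.20 to 0.07). Reads that fit several HLA genes equally are left out by the counting, and the alleles of MyLa cells may differ from the reference, so levels of the 4 chains are uncertain.

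B2M, the light chain shared by all class I molecules, rose in the combination and with romidepsin, where HLA-B, HLA-C and HLA-F fell, and fell with afatinib as they did. B2M (chromosome 15, 44711487 to 44718877) had 324.5, 330.5 and 322.5 CPM in the combination, against 279.6, 272 and 273 CPM in DMSO. It had 372, 410.4 and 389.9 CPM with romidepsin and 241.5, 237 and 249.7 CPM with afatinib. The groups did not overlap anywhere, with romidepsin highest and afatinib lowest. In the combination B2M rose by 0.24 on the log2 scale (SE 0.05, edgeR adjusted p = 6.78e-05), and with romidepsin by 0.51 (SE 0.05, adjusted p = 1.19e-11). It fell by 0.18 on the log2 scale with afatinib (edgeR adjusted p = 0.00502), a call that ended without the libraries with KRT5 reads (-0.16, 0.191), without afatinib replicate 1 (adjusted p = 0.0545) or DMSO replicate 1 (0.0565), and with scaling by library size alone (-0.08, 0.235).

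TAP1, a subunit of the peptide transporter, and TAPBP, which bridges the transporter and the heavy chain, were each at their lowest in the combination. TAP1 (chromosome 6, 32845209 to 32853978) had 91.7, 84.2 and 92.5 CPM in the combination, against 272, 286 and 233 CPM in DMSO. It had 154, 141 and 136 CPM with romidepsin and 223, 237.5 and 218 CPM with afatinib. Both romidepsin groups lay apart from both others, while afatinib overlapped with DMSO. The log2 fold change of TAP1 was -1.56 in the combination (SE 0.07, edgeR adjusted p = 5.7e-26), -0.87 with romidepsin (adjusted p = 1.62e-16) and -0.22 with afatinib (adjusted p = 0.00371). The afatinib call ended without the libraries with KRT5 reads (log2 fold change 0.02, edgeR adjusted p = 0.922) and with scaling by library size alone (-0.12, 0.118). It also ended without afatinib replicate 3, DMSO replicate 1 or DMSO replicate 2 (edgeR adjusted p = 0.0546, 0.0528 and 0.0523).

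TAPBP was called in both groups with romidepsin and not with afatinib alone. TAPBP (chromosome 6, 33299694 to 33314387) had 33.2, 41.8 and 42.7 CPM in the combination, against 148.5, 144 and 130.4 CPM in DMSO. It had 76.03, 56.25 and 61.99 CPM with romidepsin and 145, 151.5 and 135 CPM with afatinib. Every romidepsin library lay well under the afatinib and DMSO libraries, which overlapped. TAPBP fell by 1.84 on the log2 scale in the combination (SE 0.09, edgeR adjusted p = 3.93e-22) and by 1.12 with romidepsin (adjusted p = 2.98e-15). With afatinib its log2 fold change was 0.03 (95% interval -0.13 to 0.19, edgeR adjusted p = 0.788).

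TAP2, the partner of TAP1 in the transporter (chromosome 6, 32821833 to 32838770), was near the limit of these libraries with 8 to 32 counts, and 32.2% of its exon bases are shared with AL669918.1, a gene without counts. TAP2 had 2.885, 1.528 and 1.222 CPM in the combination, against 1.918, 3.231 and 1.402 CPM in DMSO. It had 1.804, 1.833 and 0.6526 CPM with romidepsin and 2.211, 2.746 and 2.008 CPM with afatinib. The groups overlapped, and no comparison called it. The 95% interval of its log2 fold change ran from -0.95 to 0.51 in the combination, which covers both a fall and a rise. It does not reach the -1.56 of TAP1, but with so few counts it is no limit of detection. The estimate ran from -0.64 to 0.14 when single libraries were left out.

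NLRC5, the transactivator of class I genes, was higher in the combination than in any other group. NLRC5 (chromosome 16, 56989485 to 57083531) had 47.5, 47.97 and 47.4 CPM in the combination, against 22.2, 23.02 and 22.3 CPM in DMSO. It had 27.7, 26.9 and 32.5 CPM with romidepsin and 16.7, 22.4 and 19.03 CPM with afatinib. The combination stood apart from all other groups, romidepsin stood above both afatinib and DMSO, and afatinib overlapped with DMSO. In the combination NLRC5 rose by 1.08 on the log2 scale (SE 0.10, edgeR adjusted p = 5.54e-14), and with romidepsin by 0.37 (adjusted p = 0.00155). With afatinib the log2 fold change was -0.22 (edgeR adjusted p = 0.0971), and it passed the threshold without afatinib replicate 2 (adjusted p = 0.023).

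**Figure D2:**
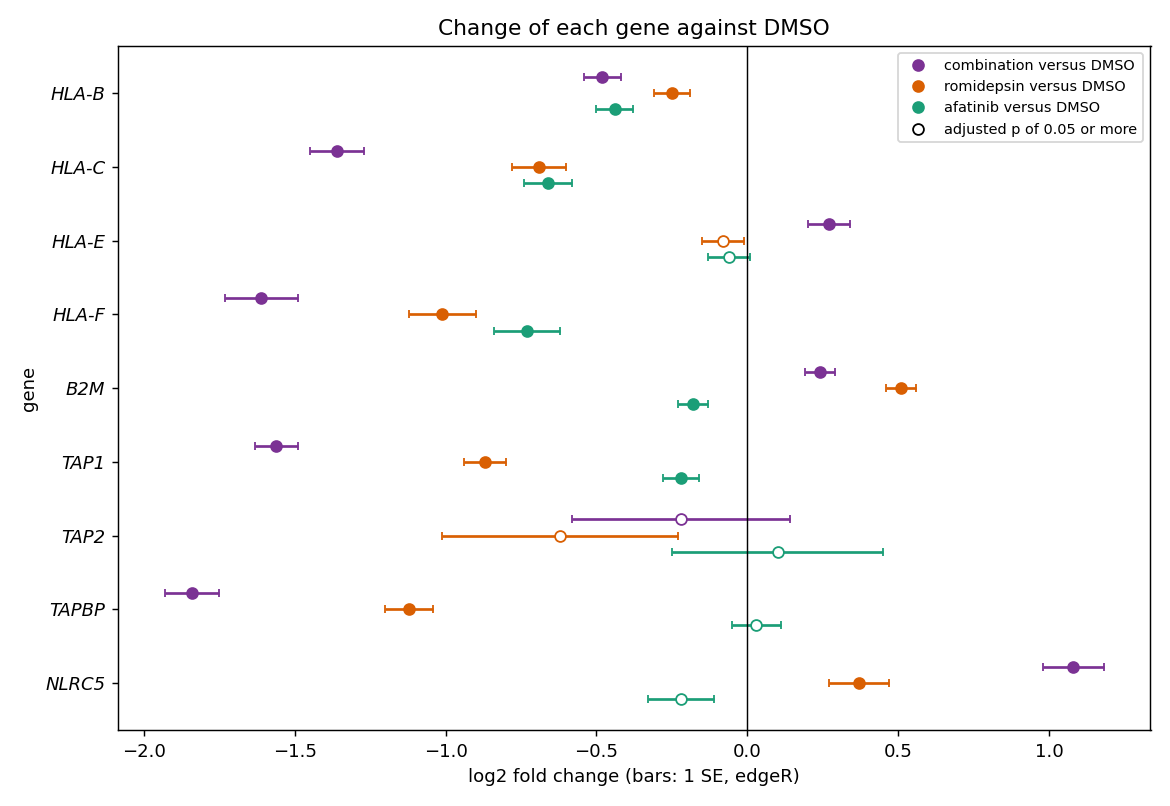
Log2 fold change of each of the 9 genes against DMSO (horizontal axis, edgeR, bars of 1 SE) for the combination, romidepsin and afatinib, with open points where the adjusted p was 0.05 or more. The combination reaches -1.84 for TAPBP and 1.08 for NLRC5, and the bars of TAP2 are the widest.

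Setting the combination against each drug, which shares the combination libraries, gave 8 of 9 genes against romidepsin, 2 higher and 6 lower, where 54.3% of all genes passed, 25.1% higher and 29.2% lower. Libraries did not overlap for 8 of 9, against 59.1% of all genes. NLRC5 was higher by a log2 fold change of 0.71 (SE 0.10, edgeR adjusted p = 1.39e-08) and HLA-E by 0.35 (adjusted p = 1.34e-05). TAPBP (log2 fold change -0.72), TAP1 (-0.68), HLA-C (-0.67), HLA-F (-0.60), B2M (-0.26) and HLA-B (-0.23) were lower. The HLA-B call ended with scaling by library size alone (log2 fold change -0.14, edgeR adjusted p = 0.0615). Against afatinib 7 of 9 were called, 3 higher and 4 lower, where 69.2% of all genes passed, 33.4% higher and 35.8% lower. Libraries did not overlap for 7 of 9, against 72.2% of all genes. NLRC5 (log2 fold change 1.30), B2M (0.42) and HLA-E (0.33) were higher, and TAPBP (-1.87), TAP1 (-1.34), HLA-F (-0.88) and HLA-C (-0.70) were lower. HLA-B did not differ past the threshold between the combination and afatinib (log2 fold change -0.04, 95% interval -0.17 to 0.09).

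For the interaction, the log2 changes of both drugs alone were subtracted from that of the combination, so 0 means that the changes add up on the log2 scale. It was past the threshold for 4 of 9 genes, 2 higher and 2 lower, where 30.2% of all tested genes passed, 11.7% higher and 18.5% lower. NLRC5 had 1.08 in the combination, against a sum of 0.16, an interaction of 0.93 (SE 0.14, edgeR adjusted p = 1.27e-06). HLA-E had 0.27, against a sum of -0.14, an interaction of 0.41 (SE 0.09, edgeR adjusted p = 0.000478). TAPBP had -1.84, against -1.09, an interaction of -0.75 (SE 0.12, edgeR adjusted p = 3.67e-06). TAP1 had -1.56, against -1.09, an interaction of -0.46 (SE 0.09, edgeR adjusted p = 9.65e-05). HLA-C lay at the sum, with -1.36 against -1.35 and a 95% interval of the interaction of -0.26 to 0.24. HLA-F had -1.61 against -1.74 and B2M 0.24 against 0.33, neither called. HLA-B had an interaction of 0.21 that missed the threshold (edgeR adjusted p = 0.0793) and passed it without combination replicate 2 (0.0112) or DMSO replicate 3 (0.0236). Without the libraries with KRT5 reads the interaction of HLA-E was 0.20 (edgeR adjusted p = 0.267), and the other 3 calls held.

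**Figure D3:**
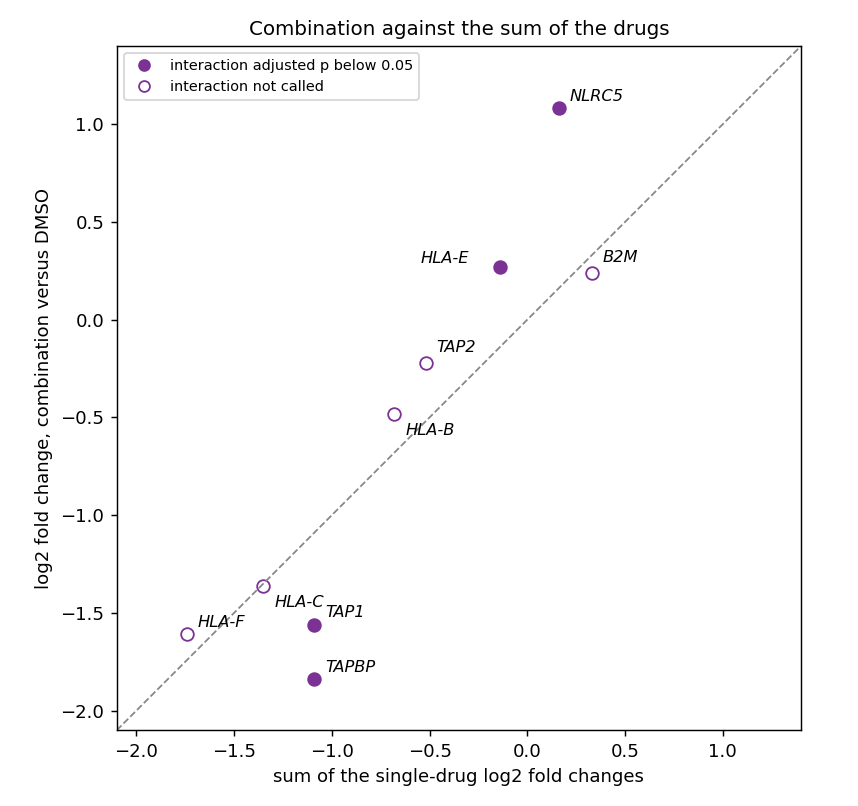
Log2 fold change of the combination against DMSO (vertical axis) by the sum of the single-drug log2 fold changes (horizontal axis) for the 9 genes, with a dashed line where both are equal and filled points where the interaction passed the threshold. NLRC5 and HLA-E lie above the line, TAP1 and TAPBP below it, and HLA-C on it.

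Without the 4 libraries with KRT5 reads, 2 combination libraries, 3 romidepsin, 2 afatinib and 1 DMSO library were left, and the lone DMSO library was assumed to vary like the other groups. The combination then called the same number of the 9 genes, 3 higher and 5 lower, with NLRC5 at a log2 fold change of 1.16 and TAPBP at -1.55, where 58.6% of 17607 genes passed. Romidepsin called 2 higher and 4 lower, where 48.5% passed. Afatinib, where 23.6% passed, called 2 lower, HLA-C (log2 fold change -0.42, edgeR adjusted p = 0.00137) and HLA-F (-0.58, adjusted p = 0.00568).

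**Figure D4:**
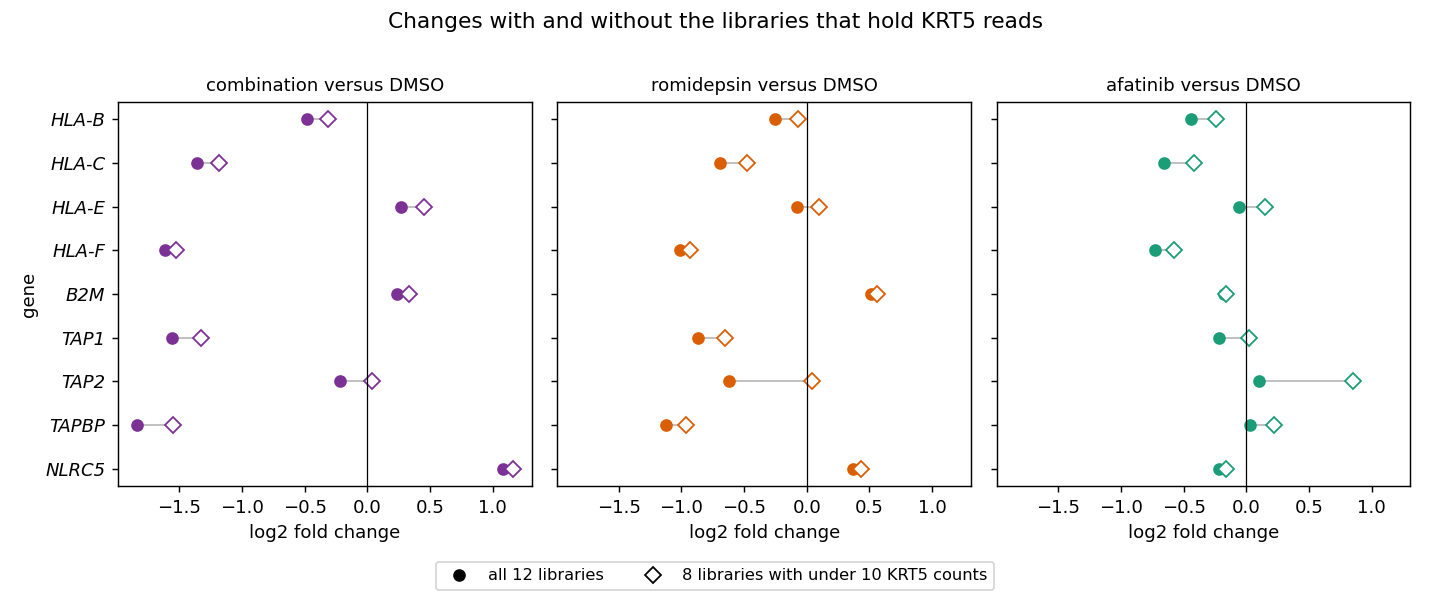
Log2 fold change of the 9 genes against DMSO (horizontal axes) in the combination, romidepsin and afatinib, from all 12 libraries (filled points) and from the 8 libraries with under 10 KRT5 counts (open diamonds). The combination keeps its direction for all genes but TAP2 (-0.22 and 0.04), and TAP1 moves across 0 with afatinib (-0.22 and 0.02).

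Per kilobase of exon, HLA-C led in DMSO, followed by HLA-B and HLA-E, whose ranges overlapped. Its level was 188 CPM per kb (168 to 209), against 69.4 for HLA-B and 67.4 for HLA-E. With afatinib the level of HLA-C was 119 CPM per kb and with romidepsin 116, still first. In the combination HLA-E was first with 81.3 CPM per kb, and HLA-C, with 73.5, overlapped with it. The TAP1 level per kb was above that of B2M with afatinib (47.1 and 39.9) and in DMSO (54.9 and 45.2). It was below that of B2M in the combination (18.6 and 53.6) and with romidepsin (29.9 and 64.3). In CPM, TAP1 averaged below B2M with afatinib (226.1 and 242.6) and in DMSO (263.6 and 275.1) as well. The length counts all annotated exon bases, 6079 for B2M and 4805 for TAP1, so each order between genes depends on it. It includes bases shared with other genes, where reads were left out. Their share is 18.9% for HLA-B, 28% for HLA-F, 12% for TAP1, 32.2% for TAP2 and 1.4% for HLA-C. These levels may therefore be underestimates. NLRC5 was above HLA-F per kb in the combination (3.84 and 3.07) and below it in DMSO (1.82 and 9.38). TAP2 was last in every group, at 0.224 to 0.364 CPM per kb.

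As a description over 12 libraries that share 4 treatments, log2 CPM of TAP1 and TAPBP had a Pearson correlation of 0.974 and HLA-C and HLA-F one of 0.969. TAP1 and NLRC5 had -0.918, and TAPBP and NLRC5 -0.928. Among 10184 other genes, the most like TAP1 were TSSC4 (0.997), MCM7, a subunit of the replicative helicase (0.996), and ZNF787 (0.996). B2M was most like MAX, the partner of MYC (0.994), ESYT2 (0.991) and APAF1, the core of the apoptosome (0.991). SEMA3G (0.984) and GUK1 (0.979) were the most like NLRC5 of those reported here. HLA-B was most like FTSJ3 (0.978), TRIM28 (0.975) and RPL41 (0.968), whose group means, like that of HLA-B, were lowest in the combination and highest in DMSO. The HLA-B libraries of the combination and of afatinib overlapped, with means of 152.2 and 156.2 CPM.

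The proteasome of interferon-exposed cells carries PSMB8, PSMB9 and PSMB10 in place of PSMB5, PSMB6 and PSMB7, and PSME1 and PSME2 form its PA28 cap. Of these 5 immunoproteasome genes, 4 fell in the combination, 2 fell with romidepsin and 4 fell with afatinib, where 37.1%, 31.5% and 23.3% of all tested genes fell. Leaving out single libraries gave 3 to 4 lower genes in the combination, 2 to 3 with romidepsin and 3 to 4 with afatinib. Fewer of the combination and afatinib calls held without the libraries with KRT5 reads. With afatinib the PSMB9 libraries overlapped with those of DMSO. PSME2 had a log2 fold change of 0.20 in the combination that was not called (edgeR adjusted p = 0.0904). PSMB8 averaged 7.11 CPM in the combination and 41.7 CPM in DMSO (log2 fold change -2.55, edgeR adjusted p = 6.99e-24), and its log2 fold change was -1.16 with romidepsin and -0.83 with afatinib. PSMB10 fell by 2.21 on the log2 scale in the combination and by 1.96 with romidepsin. PSME1 fell by 0.78 in the combination and by 0.56 with afatinib. The standard subunits fell too, 3 of 3 in the combination and with romidepsin and 2 of 3 with afatinib, beside the same shares of all genes (37.1%, 31.5% and 23.3%), with PSMB5 at a log2 fold change of -1.78 in the combination. Neither afatinib call of the standard subunits held without the libraries with KRT5 reads.

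Of 6 chaperone and trimming genes, 1 rose and 4 fell in the combination, 1 rose and 3 fell with romidepsin, and 1 rose and 3 fell with afatinib. Of all tested genes 74.3%, 62.6% and 45.4% were called in these comparisons. CALR, calreticulin of the loading complex, averaged 4085 CPM in the combination and 1937 CPM in DMSO (log2 fold change 1.08, edgeR adjusted p = 1.82e-22). It rose by 0.79 with romidepsin and fell by 0.64 on the log2 scale with afatinib, an interaction of 0.93 (edgeR adjusted p = 3.19e-13). ERAP2, which trims peptides, averaged 120 CPM in the combination and 426 CPM in DMSO, and its log2 fold change was -1.83 in the combination, -0.97 with romidepsin and -0.50 with afatinib. ERAP1 fell by 0.86 in the combination. TAPBPL, a relative of tapasin that edits peptides, fell by 0.75 in the combination and by 1.34 with romidepsin, and rose by 0.57 with afatinib.

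Of 20 tested interferon and regulator genes, 7 rose and 8 fell in the combination, 7 rose and 8 fell with romidepsin, and 4 rose and 6 fell with afatinib. These counts are near the shares of all tested genes called (74.3%, 62.6% and 45.4%) and are no result about the list. The rises in the combination include IRF9, with 0.8169 CPM there and 0.2734 CPM in DMSO. IRF9 passed the filter mainly through treated libraries, so it is no support for a rise. The interferon gamma gene itself, IFNG, had at most 1 count in a library. IFNGR1, a receptor chain, rose by 1.47 in the combination and by 1.65 with romidepsin. RFX5, the DNA-binding chain of the RFX complex, averaged 177 CPM in the combination and 716 CPM in DMSO (log2 fold change -2.02, edgeR adjusted p = 1.16e-34), and its log2 fold change was -1.44 with romidepsin. CIITA, the class II counterpart of NLRC5, had log2 fold changes of -1.96 in the combination, -1.56 with romidepsin and -0.54 with afatinib. ATF1, a CREB-family factor, fell by 1.53 in the combination. RFXAP rose by 0.60 and SOCS1, an inhibitor of JAK kinases, rose by 0.50 with afatinib. Without the libraries with KRT5 reads, fewer regulator genes were called with afatinib, and fewer of all genes were called as well.

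The last list holds 10 class I-like molecules and ligands of the natural killer receptor NKG2D, of which 5 were tested. Of these, 5 rose in the combination, 4 with romidepsin and 2 with afatinib, where 37.2%, 31.1% and 22% of all tested genes rose. With afatinib ULBP2 and MICB had log2 fold changes of -0.15 and -0.06, not called. The median log2 fold change of the 5 genes in the combination was 2.32, against -0.01 over all tested genes. FCGRT, with 1.587 CPM in the combination and 0.1198 CPM in DMSO, passed the filter mainly through the combination libraries. Its log2 fold changes, 3.62 in the combination and 2.95 with romidepsin, count in these numbers. The filter favoured such rises, so FCGRT is no support for them. ULBP1 averaged 186 CPM in the combination, 45.7 with romidepsin, 98.7 with afatinib and 17.4 in DMSO, with a log2 fold change of 3.42 in the combination (edgeR adjusted p = 1.77e-36). ULBP2 had log2 fold changes of 2.32 in the combination and 1.74 with romidepsin. MR1, which presents vitamin metabolites to a class of T cells, rose by 1.28 in the combination, by 0.54 with romidepsin and by 1.58 with afatinib. Another 5 genes of this list had too few counts, with HLA-G and CD1D at 0 counts and MICA at most 7.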

How the data were processed

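The deposited counts are whole numbers of read pairs per gene name, made with featureCounts 2.0.0 and GENCODE 31 from pairs mapped at both ends, per the file headers. No strand was set, and multi-mapping reads and reads shared by overlapping genes were left out. The submitters' processing notes name STAR 2.7.9a, GRCh38.p12 and DESeq2 1.38.1. The sources used here give neither the library kit nor its strand. A second deposited table was not used, because its values did not follow the counts.

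Genes were kept by filterByExpr and scaled by TMM in edgeR 4.0.16 (R 4.3.3). The quasi-likelihood test (robust) used 4 group means over 12 libraries, two-sided, with Benjamini-Hochberg adjustment over 16208 genes and a threshold of 0.05. SE is the absolute log2 fold change divided by the square root of F. The biological coefficient of variation was 6.13%. Intervals of fold changes use this SE, which includes the spread among libraries, and the floor of 3 counts covers counting error only. No replicate pair of a group agreed within sampling noise.

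The 9 genes, the 5 pathway lists and the markers were chosen with earlier results of these data known. All 9 genes are named. Each list could name up to 4 called genes per comparison by size of change, if they averaged at least 5 CPM over all libraries, and some of these are left out of the text. Some items that meet the rules are not reported here. HLA-G, CD1D, MICA, IFNG, IRF9 and FCGRT are named outside this rule, for their low counts. Correlations use log2 CPM with a prior count of 2.

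Alternatives were DESeq2 1.42.0, DESeq2 size factors, library size as the only scaling, 2 other filters, a fit on the compared groups only (not possible for the interaction), a replicate block, leaving out each library, and leaving out the libraries with at least 10 KRT5 counts.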

Additional observations from a re-analysis of the deposited data

Results flagged for a closer look

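For 4 of the 9 genes the change by afatinib differed between cells with and without romidepsin, by the interaction test of edgeR, which 30.2% of all tested genes passed. In NLRC5 it was 0.71 with romidepsin present and -0.22 without it, a difference of 0.93 on the log2 scale (edgeR adjusted p = 1.27e-06). In TAPBP it was -0.72 with romidepsin and 0.03 without it, a difference of -0.75 (edgeR adjusted p = 3.67e-06). In TAP1 it was -0.68 with romidepsin and -0.22 without it, a difference of -0.46 (edgeR adjusted p = 9.65e-05). In HLA-E it was 0.35 with romidepsin and -0.06 without it, a difference of 0.41 (edgeR adjusted p = 0.000478). The HLA-E difference was 0.20 without the libraries with KRT5 reads (edgeR adjusted p = 0.267), and those of NLRC5, TAPBP and TAP1 were 0.89, -0.82 and -0.70 there.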

How the results depend on the processing

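Each comparison of each gene was repeated under up to 20 settings, and 1020 of 1071 values kept their direction and their side of the threshold. Afatinib against DMSO depended most on the setting: with scaling by library size alone 3 of the 9 genes were lower, and 2 without the libraries with KRT5 reads, where 4162 genes were called in place of 7351. Leaving out single libraries gave 3 to 6 lower genes, with 3 without DMSO replicate 1. Library size alone moved the median of all genes by 0.10 in the combination. The interaction of HLA-E was 0.20 without the libraries with KRT5 reads, in place of 0.41, and fewer of all genes were called in the interaction there. Without those libraries the log2 fold changes that turned their direction were TAP2 in the combination (0.04), HLA-E and TAP2 with romidepsin (0.10 and 0.04), HLA-E and TAP1 with afatinib (0.15 and 0.02), and HLA-B, HLA-F and TAP2 in the interaction (-0.01, -0.01 and -0.85). Other turns were near 0: HLA-E with afatinib under library size (0.04), TAPBP with afatinib without a filter (0), HLA-B in the combination against afatinib with DESeq2 or its size factors (0), and HLA-C in the interaction with DESeq2, its size factors or no filter (0.03). The cause was not tested.

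Leaving out single libraries gave TAP2 -0.64 to 0.14 in the combination, -0.14 to 0.47 with afatinib, -0.03 to 0.64 in the combination against romidepsin and -0.13 to 0.54 in the interaction. HLA-E ran from -0.14 to 0 with romidepsin and from -0.13 to 0.01 with afatinib, TAPBP from -0.03 to 0.09 with afatinib, and HLA-B from -0.08 to 0.04 in the combination against afatinib. In the interaction HLA-C ran from -0.10 to 0.10 and HLA-F from 0 to 0.25. HLA-B was called in the interaction with DESeq2 size factors (edgeR adjusted p = 0.0432).

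Replicate numbers did not pair the libraries: over 18 pairs the correlations of same-numbered libraries ran from -0.0899 to 0.0894. A replicate block called 11968 genes in the combination in place of 12036, 10050 with romidepsin in place of 10139, 7223 with afatinib in place of 7351 and 4796 in the interaction in place of 4898, and changed no call of the 9 genes.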

Other observations

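The balance of transcripts among the genes of the set differed between groups. The heavy chain level below covers HLA-B, HLA-C, HLA-E and HLA-F only, and not every class I heavy chain. Summed over the 4 heavy chains, the level was 208 ± 21.2 CPM per kb in the combination, 243 ± 12.9 with romidepsin, 240 ± 12.5 with afatinib and 334 ± 33.6 in DMSO (SD, n = 3 each). The ratio of B2M to heavy chains per kb was 0.241 to 0.297 in the combination, 0.237 to 0.287 with romidepsin, 0.154 to 0.18 with afatinib and 0.122 to 0.149 in DMSO. It was higher in every library of the combination and of romidepsin than in every other library. HLA-C made up 35.3% ± 1.56 of the heavy chain level per kb in the combination, 47.9% ± 0.379 with romidepsin, 49.5% ± 0.289 with afatinib and 56.2% ± 0.557 in DMSO. The ratio of HLA-E to HLA-C per kb was 1.06 to 1.22 in the combination, 0.537 to 0.557 with romidepsin, 0.534 to 0.554 with afatinib and 0.352 to 0.367 in DMSO. These ratios were not tested, and reads left out between similar HLA genes enter each of them. Levels per kb divide by all annotated exon bases, 6079 for B2M and 2507 to 4315 for the heavy chains. Reads over bases shared with other genes, 18.9% of HLA-B and 28% of HLA-F, were left out as well. The sizes of the ratios depend on these lengths and do not give relative amounts of transcript. In CPM the combination averaged 325.8 for B2M and 587 for the sum of the 4 heavy chains.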
